A study of Rattus norvegicus with 14 samples.

Results

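The genes described here are 10 well-known targets of the glucocorticoid receptor: Fkbp5, Sgk1, Tsc22d3, Zbtb16, Pdk4, Cdkn1a, Klf9, Klf15, Errfi1 and Hif3a. They were taken by symbol from the 22093 genes that the array's annotation names singly, and each had 1 probe set, so no choice between probe sets was needed. All 10 were measured, and the mean level of each lay above the lowest array median of 5.77 on the log2 scale, used here as a rough mark of dim signal.

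RNA from motor cortex of male rats with spinal cord injury (SCI) was measured on 14 whole-transcript arrays. The MSC group (7 arrays) came from rats infused intravenously with MSC 24 hours after the injury, and the vehicle group (7 arrays) from rats infused with vehicle at that time. MSC is the submitters' abbreviation, in this field commonly short for mesenchymal stem (stromal) cells. All rats of both groups were injured and received cyclosporine A, an immunosuppressant, every day, and the cortex was taken under anesthesia 3 days after the infusion. The study therefore holds no uninjured, untreated or hormone-treated animals, and the sources used here do not give strain, age or the origin of the cells. Whether every array stands for its own rat is not stated, so the p-values reflect spread among these arrays, some of which may be technical. MSC replicate 7 is called vehicle in its free-text description but MSC in its title, source name and treatment, and was kept as MSC.

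Glucocorticoids, corticosterone in the rat, are adrenal steroids that rise with the daily rhythm and with stress. In the cell they bind the glucocorticoid receptor, a transcription factor held by heat shock protein chaperones, which then moves to the nucleus and binds DNA at glucocorticoid response elements. Its targets in brain include brakes on the receptor itself, kinases, transcription factors of metabolism and inhibitors of growth signals. They are used as readouts of recent hormone exposure, although each also answers to other signals. Corticosterone levels were not analysed here.

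Defining markers of cortical excitatory neurons were bright in both groups, with all 6 measured list members above the mark of dim signal. Their list mean ran from 12.4 to 12.8 in MSC arrays and from 12.2 to 12.7 in vehicle arrays. Ttr, the transthyretin gene of choroid plexus, set apart MSC replicate 4 (16.9) and vehicle replicate 2 (16.8) from the other 12 arrays (6.63 to 10.006). Striatal markers were highest in MSC replicate 6. Of 4 spike-in controls, dap (7.45 to 8.12) and phe (5.51 to 6.25) were lower in every array of replicates 6 and 7 than in replicates 1 to 5 (8.35 to 9.92 and 6.35 to 7.95), while the ranges of lys and thr overlapped. No label names a batch. In bulk tissue, fewer cells of a type and less RNA per cell cannot be told apart.

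Promoter letters are shown first for Sgk1, Pdk4 and Tsc22d3, which varied together most closely over the arrays, as described further on. The windows cover 250 bases before to 50 bases after an annotated start, printed 5′ to 3′ on the gene's strand, from RefSeq on rat assembly GRCr8. Capitals mark the TATA box letters TATAAA. Sgk1 lies at chr1:24804782-24805081 (minus strand), Pdk4 at chr4:34568280-34568579 (minus strand) and Tsc22d3 at chrX:109009985-109010284 (minus strand). Sgk1 and Tsc22d3 have 3 such windows each, of which the one with the most downstream start is printed.
Sgk1: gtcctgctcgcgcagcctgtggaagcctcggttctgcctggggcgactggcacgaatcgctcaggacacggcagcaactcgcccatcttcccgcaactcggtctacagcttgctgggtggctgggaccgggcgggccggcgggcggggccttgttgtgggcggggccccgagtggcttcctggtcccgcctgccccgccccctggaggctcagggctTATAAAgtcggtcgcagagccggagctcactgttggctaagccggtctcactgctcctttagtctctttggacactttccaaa
Pdk4: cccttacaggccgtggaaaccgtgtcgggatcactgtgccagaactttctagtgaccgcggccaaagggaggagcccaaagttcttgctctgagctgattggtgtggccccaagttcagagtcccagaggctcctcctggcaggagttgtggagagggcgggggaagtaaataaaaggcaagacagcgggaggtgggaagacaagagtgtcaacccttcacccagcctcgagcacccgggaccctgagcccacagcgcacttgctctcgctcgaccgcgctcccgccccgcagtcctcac
Tsc22d3: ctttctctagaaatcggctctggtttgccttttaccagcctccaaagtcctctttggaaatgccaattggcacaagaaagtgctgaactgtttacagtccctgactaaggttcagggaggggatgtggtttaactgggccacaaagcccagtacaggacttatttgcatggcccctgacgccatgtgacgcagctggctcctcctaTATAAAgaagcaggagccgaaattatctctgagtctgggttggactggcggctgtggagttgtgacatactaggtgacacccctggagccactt

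Windows were found for 9 of the 10 genes (14 windows), and Zbtb16 had none. The palindromic glucocorticoid response element, searched on both strands as the 6 letters AGAACA, 3 bases of any kind and the reverse complement of AGAACA, matched 0 of the 14 windows and 0.0149% of all 33469 windows. Its arm AGAACA alone, which overlaps that search, also matched 0 of 14, against 20.7% of all windows. TATAAA matched 4 of 14 windows (Sgk1, Tsc22d3 and Errfi1) against 14.2% of all. The E-box CACGTG, the letters bound by clock factors, matched 1 of 14 (Klf15) against 6.42%. These counts describe only the printed length of sequence around the start, and response elements of such genes are often far from it.

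The comparison asked whether the genes differed in cortex after MSC infusion. No single gene differed beyond the spread between arrays in the fit with no covariate. MSC and vehicle values overlapped for all 10, and the share of all genes with overlapping groups was not computed. In limma, a linear model with a shared estimate of the spread, 0 of 10 genes passed an adjusted p of 0.05 over all 68842 probe sets (adjusted p = 0.9999 for each), and the background was 0% of probe sets. At an unadjusted p below 0.05 the count was 0 of 10 in limma, against 3.41% of all probe sets, and exact permutation of single genes gave p from 0.218 to 0.566 (two-sided, 7 against 7). With replicates 6 and 7 fitted as a block, the unadjusted p in limma was 0.047 for Sgk1 and 0.046 for Pdk4 (adjusted 0.9999). In that fit 2455 of 68842 probe sets had an unadjusted p below 0.05. Of the 10 genes, 4 had higher and 6 lower means in the MSC group. The median log2 difference was -0.054, against -0.0038 over all 22093 genes, of which 47.6% were higher on average in MSC arrays.

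Fkbp5, a cochaperone that lowers the receptor's affinity for hormone, had a lowest, median and highest level of 8.39, 8.47 and 8.73 in MSC arrays, against 8.01, 8.53 and 8.98 in vehicle arrays (log2). The vehicle arrays enclosed the MSC arrays, with vehicle replicate 1 highest of all and vehicle replicate 5 lowest. The difference was 0.085 ± 0.13 (SE, MSC minus vehicle, 7 arrays each).

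Sgk1, a kinase that acts on ion channels and is induced by corticosteroids, stood at 9.31, 9.73 and 10.75 in MSC arrays (lowest, median, highest), against 9.48, 10.004 and 10.99 in vehicle arrays. Only 1 of 7 MSC arrays, replicate 6, lay above the vehicle mean, the same count as for Tsc22d3. That mean was 10.15, above the vehicle median, with vehicle replicates 6 and 7 at 10.99 and 10.57. The difference of -0.35 ± 0.24 (SE) had the largest size of the 10, with a 95% interval of -0.87 to 0.16, or 0.547-fold to 1.12-fold.

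Tsc22d3, which encodes the leucine zipper protein GILZ, an anti-inflammatory mediator of glucocorticoids, ran from 7.90 to 8.30 around a median of 8.13 in MSC arrays, against 7.81 to 8.49 around 8.05 in vehicle arrays. Its difference was -0.066 ± 0.11 (SE), well inside the spread of either group.

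Of the transcription factors, Zbtb16, a zinc finger protein also called PLZF, had 9.57, 9.85 and 10.27 in MSC arrays, against 9.19, 9.91 and 10.18 in vehicle arrays (lowest, median, highest). Here 6 of 7 MSC arrays lay above the vehicle mean, and the difference was 0.18 ± 0.15 (SE). It was 0.070 with MSC replicate 7, the array of conflicting labels, counted as vehicle, and 0.087 without vehicle replicate 2. Klf9, a Krüppel-like factor induced in neurons by corticosterone, ran from 10.85 to 11.48 in MSC arrays and from 10.74 to 11.39 in vehicle arrays, with a difference of 0.090 ± 0.12. Klf15, a relative that controls amino acid and glucose metabolism, was nearly flat, at 5.99 to 6.27 in MSC and 6.03 to 6.37 in vehicle arrays (difference -0.042 ± 0.065). Hif3a, an alpha subunit of the hypoxia-inducible factors, ran from 5.73 to 6.14 in MSC and from 5.54 to 6.02 in vehicle arrays (0.049 ± 0.082). Klf15, Hif3a and Cdkn1a lay close to the mark of dim signal.

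Among the genes of metabolism and growth control, Pdk4, a kinase that shuts off pyruvate dehydrogenase and so spares glucose, varied most. It had 6.16, 6.48 and 7.50 in MSC arrays, against 6.24, 6.68 and 7.89 in vehicle arrays, and the difference was -0.28 ± 0.26 (SE, 95% interval -0.83 to 0.26). The highest arrays were replicate 6 of each group and vehicle replicate 7. Errfi1, an inhibitor of the epidermal growth factor receptor, ran from 10.37 to 10.99 in MSC and from 10.35 to 11.35 in vehicle arrays (-0.12 ± 0.14). Cdkn1a, the cell cycle inhibitor p21, ran from 5.70 to 6.21 in MSC and from 5.93 to 6.30 in vehicle arrays (-0.068 ± 0.082). Its lowest value, in MSC replicate 5, stood apart from the other MSC arrays.

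**Figure D1:**
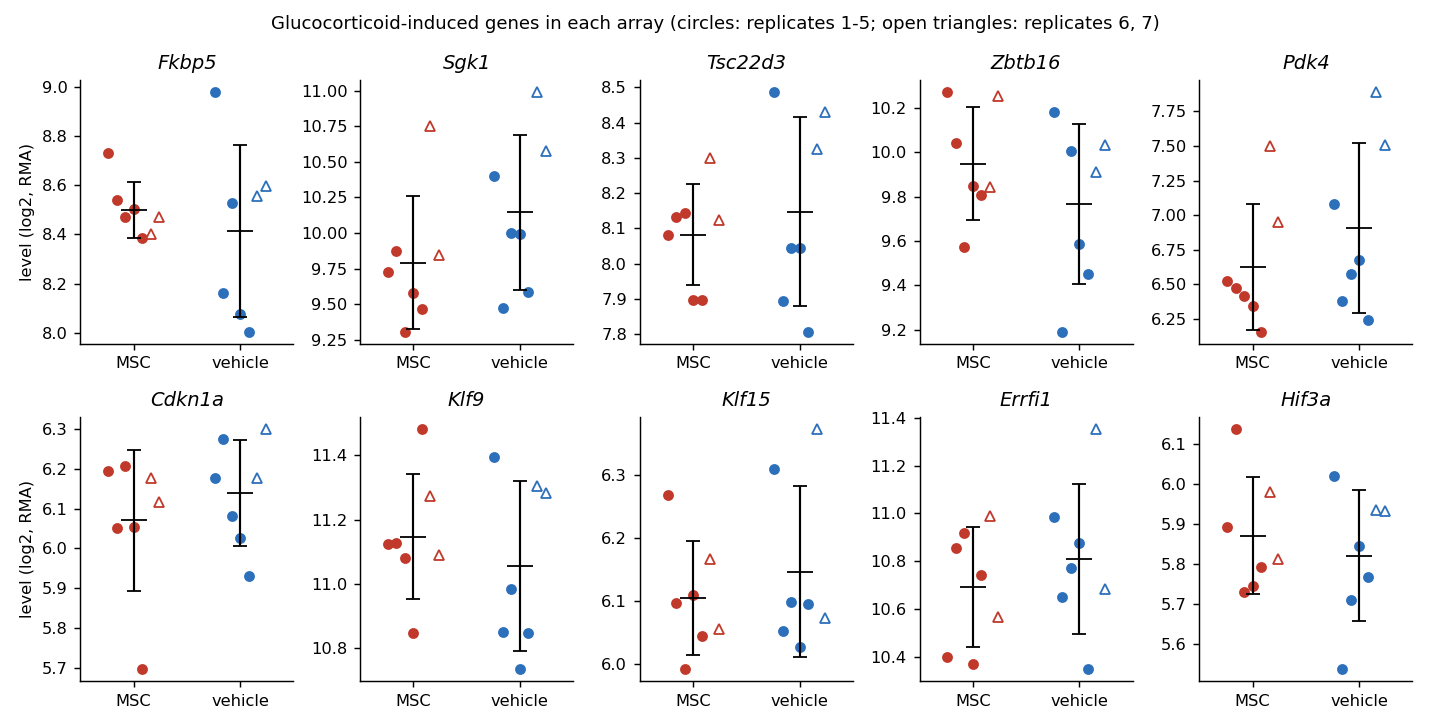
Level of each gene (log2, RMA) in the 7 MSC arrays (left in each panel) and the 7 vehicle arrays (right), with circles for replicates 1 to 5, open triangles for replicates 6 and 7, and bars for mean and SD; vertical scales differ between panels. The groups overlap for all 10 genes (share over all genes not computed), and Sgk1 and Pdk4 have their highest values among the triangles.

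What the genes showed was variation between arrays of the same group. The median SD within groups was 0.246 on the log2 scale for the 10 genes. It was 0.145 over the genes above the mark of dim signal and 0.132 over all 22093 genes, and 9 of 10 lay above the latter. Pdk4 (SD 0.540) and Sgk1 (0.507) were above the SD of 99.4% and 99.2% of genes. From its lowest to its highest array Pdk4 spanned 3.33-fold and Sgk1 3.22-fold, against 1.96-fold for Fkbp5 and 1.30-fold for Klf15, which lay at the 38.4th percentile of SD.

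The genes varied together over the arrays. Of their 45 pairs, 44 had a positive Pearson correlation over the 14 arrays, with a median r of 0.508, against 0.004 over all pairs of the 22093 genes. An r above 0.5 was reached by 23 pairs (51.1%), against 6.19% of all gene pairs and 7.73% of pairs among the 14213 genes above the mark of dim signal. With values centred on the mean of each group the median r was 0.543, so the shared variation lay within the groups. It was 0.293 within MSC arrays and 0.683 within vehicle arrays, a difference that was not tested, and 0.490 within replicates 1 to 5. The arrays share their processing and depth of signal, and pairs that share a gene are not independent.

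Between Sgk1 and Pdk4 r was 0.948 (permutation p = 3e-05, adjusted over 45 pairs 0.0013) and Spearman's rho 0.895 (permutation p = 8e-05, adjusted 0.0036). Without the arrays farthest from the Sgk1 median, MSC replicate 6 and vehicle replicate 6, r was 0.888. It was 0.908 within MSC arrays (exact permutation p = 0.011, n = 7), 0.975 within vehicle arrays (exact permutation p = 7.9e-04, n = 7) and 0.879 within replicates 1 to 5. Both genes were higher in replicates 6 and 7 (4 arrays) than in replicates 1 to 5 (10 arrays), with means of 10.54 against 9.74 for Sgk1 and 7.46 against 6.49 for Pdk4. The part of the spike-in gap in this difference was not tested. The permutations over all arrays took no account of this difference. The genes were also chosen with earlier results of these data known. For both reasons the permutation p-values of gene pairs, here and below, are descriptive and give no chance level for pairs set in advance.

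Tsc22d3 followed the same arrays. Its r was 0.828 with Pdk4 (permutation p = 3.1e-04, adjusted 0.0070; rho 0.811, permutation p = 8e-04, adjusted 0.018) and 0.788 with Sgk1 (permutation p = 7.6e-04, adjusted 0.0085; rho 0.657, permutation p = 0.013, adjusted 0.063). Without vehicle replicates 1 and 7, the arrays farthest from the Tsc22d3 median, r with Pdk4 was 0.852. Without MSC replicate 6 and vehicle replicate 6, farthest from the Sgk1 median, r with Sgk1 was 0.798. Within replicates 1 to 5 these were 0.889 and 0.703.

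Fkbp5 and Zbtb16 were also a close pair, with r = 0.797 (permutation p = 6e-04, adjusted 0.0085) and rho = 0.789 (permutation p = 0.0012, adjusted 0.018). Without vehicle replicates 1 and 5, the highest and lowest for Fkbp5, r was 0.785. It was 0.607 within MSC arrays (exact permutation p = 0.15, n = 7), 0.880 within vehicle arrays (exact permutation p = 0.012, n = 7) and 0.847 within replicates 1 to 5. With Sgk1 and Pdk4 their correlations were lower over all arrays, at 0.360 to 0.386. These were -0.204 to 0.210 within MSC arrays, 0.621 to 0.762 within vehicle arrays and 0.473 to 0.595 within replicates 1 to 5. Replicates 6 and 7 were above replicates 1 to 5 by 0.069 for Fkbp5 and 0.215 for Zbtb16, against 0.799 for Sgk1 and 0.976 for Pdk4 (log2). Whether the pairs differ from each other was not tested. These 4 pairs passed an adjusted permutation p of 0.05 by Pearson's r, and 3 of them by Spearman's rho. The share of all gene pairs that would pass was not computed, so this count has no background. It is a description, since the genes were chosen with earlier results of these data known.

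**Figure D2:**
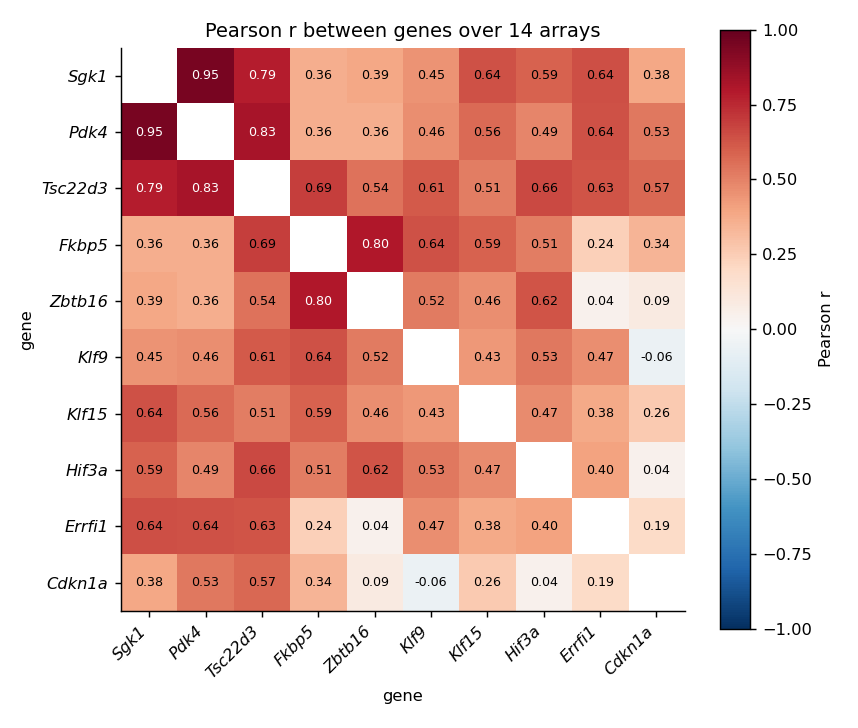
Pearson r over 14 arrays for each pair of the 10 genes (rows and columns), coloured from -1 (blue) to 1 (red). Of the 45 pairs, 44 are positive, the highest is Sgk1 with Pdk4 at 0.948, and the lowest is Cdkn1a with Klf9 at -0.059.

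**Figure D3:**
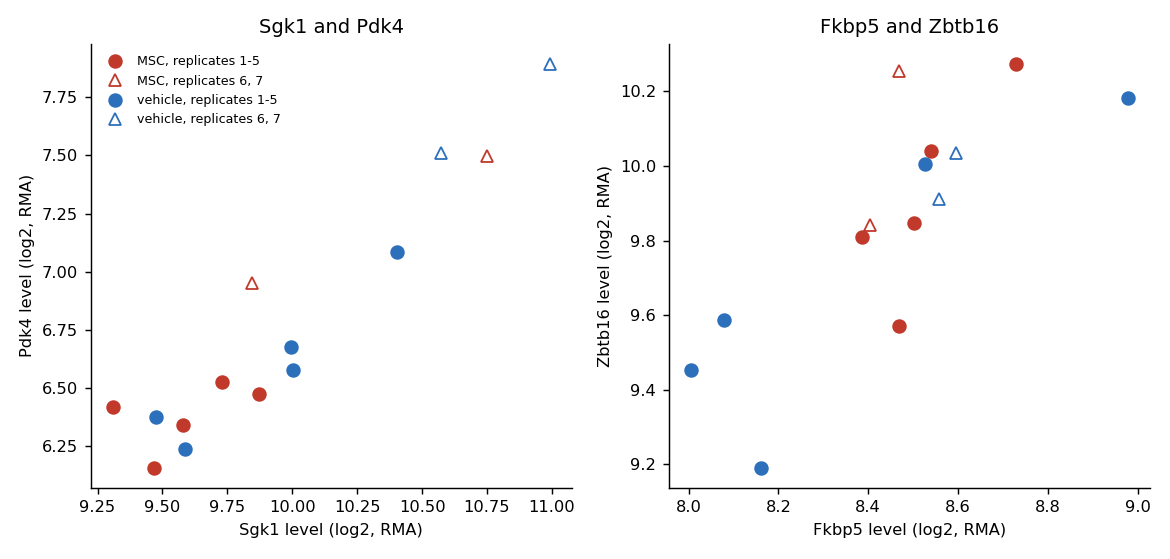
Levels (log2, RMA) of Pdk4 against Sgk1 on the left and of Zbtb16 against Fkbp5 on the right, 1 point per array, MSC red and vehicle blue, with open triangles for replicates 6 and 7. Of the triangles, 3 lie at the upper right for Sgk1 and Pdk4 (r = 0.948) and MSC replicate 7 lies mid-range for Sgk1, and vehicle replicates 1 and 5 mark the ends of the Fkbp5 range on the right (r = 0.797).

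A score was formed per array as the mean, over the 10 genes, of the level minus that gene's mean over the arrays (log2). MSC arrays ran from -0.181 to 0.228 with a median of 0.012, and vehicle arrays from -0.301 to 0.373 with a median of -0.029. Vehicle replicates 6 (0.373), 1 (0.292) and 7 (0.232) and MSC replicate 6 (0.228) were highest, and vehicle replicates 5 (-0.301) and 2 (-0.263) lowest. In vehicle replicates 1 and 6 all 10 genes were above their own means, and in vehicle replicate 5 it was 0 of 10. The group means were -0.026 ± 0.14 in MSC and 0.026 ± 0.27 in vehicle arrays (SD, n = 7 each), a difference of -0.052 ± 0.12 (SE), given with no test because the genes form the score. Within replicates 1 to 5 the difference was -0.0022 ± 0.115, and within replicates 6 and 7 it was -0.18 ± 0.126 (SE).

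Against the score of the other 9, Tsc22d3 had the highest correlation (r = 0.917), followed by Sgk1 (0.839) and Pdk4 (0.838). Klf15 (0.665), Hif3a (0.661), Fkbp5 (0.609), Klf9 (0.604), Errfi1 (0.577) and Zbtb16 (0.520) lay between, and Cdkn1a had the lowest (0.387).

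Other genes known to respond to glucocorticoids, 27 in all and none of them used in the score, were set beside it. Their mean tracked the score with r = 0.853 and rho = 0.846 over 14 arrays, and with r = 0.851 without MSC replicate 4 and vehicle replicate 1. It was 0.833 within MSC arrays, 0.921 within vehicle arrays and 0.788 within replicates 1 to 5. Gene by gene, 11 of 27 (40.7%) had an r above 0.5 with the score, against a background of 6.99% of the 22083 genes outside the 10, and 0 had an r below -0.5, against 2.77%. The median r was 0.447 over the 27 and 0.040 over all genes outside the 10. Of the 27, 23 lay above the mark of dim signal. Among the 14203 genes outside the 10 and above that mark, 9.22% had an r above 0.5 and the median r was 0.065. No p is given for the score, since its genes and the 27 were both chosen with earlier results of these data known. For the same reason the 27 are a description and no independent check of the score.

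The 11 were Mt1, Nfkbia, Per1, Ddit4, Cebpd, Arrdc2, Irs2, Arrdc3, Mt2A, Map3k6 and Mfsd2a, picked out after their values were seen. Mt1, a metallothionein that binds zinc, had the highest r (0.850). Its level, from 1 of 2 probe sets, was 7.67, 8.92 and 10.32 in MSC arrays and 7.78, 8.73 and 10.31 in vehicle arrays (lowest, median, highest). Nfkbia, the inhibitor of NF-kappaB, had an r of 0.832, and Per1, a clock gene with a glucocorticoid response element, 0.785. Ddit4, an inhibitor of mTOR signalling, had 0.782 and Cebpd, a transcription factor, 0.723. Plin4, Litaf and Il1r1, the lowest of the 27 and also singled out after seeing values, had r of 0.025, -0.028 and -0.078. Map3k6 lay below the mark of dim signal.

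**Figure D4:**
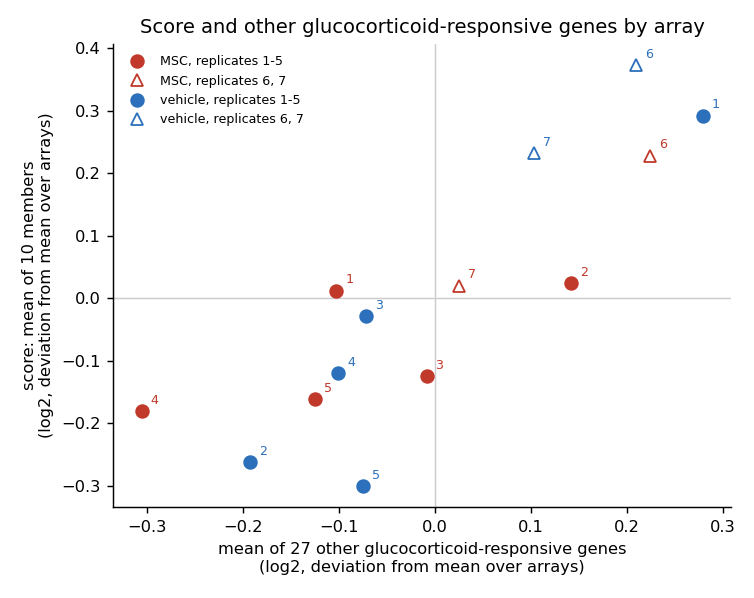
Score of the 10 genes (vertical) against the mean of 27 other glucocorticoid-responsive genes (horizontal), both as log2 deviations from the mean over arrays, 1 numbered point per array by replicate, MSC red and vehicle blue, open triangles for replicates 6 and 7. Arrays of both groups lie along 1 rising band (r = 0.853), with MSC replicate 4 lowest on the horizontal axis and vehicle replicate 1 highest.

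**Figure D5:**
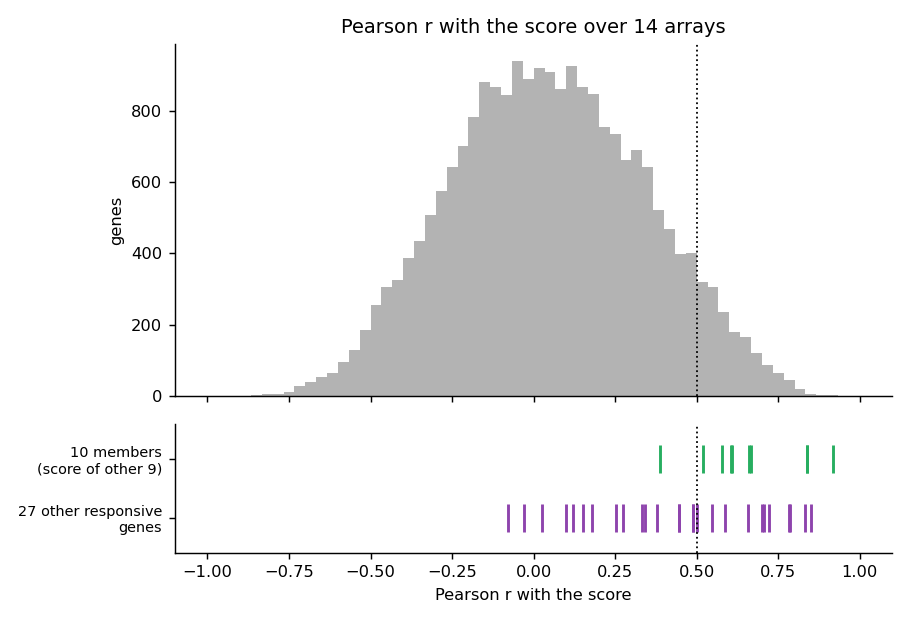
Distribution of Pearson r with the score over 14 arrays for 22083 genes outside the 10 (grey counts), and below it 1 tick per gene for the 10 genes against the score of the other 9 and for 27 other responsive genes; the dotted line marks r = 0.5. Of the 10 genes 9 lie right of the line, as do 11 of the 27 and 6.99% of all genes.

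Between the groups, 0 of the 27 passed the adjusted threshold in limma (background 0%). Of these, 12 were higher and 15 lower on average in MSC arrays, with a median difference of -0.0045. Dusp1, a phosphatase of MAP kinases that is also an immediate early gene, had 8.94, 10.39 and 12.26 in MSC arrays and 11.65, 11.83 and 12.33 in vehicle arrays, a difference of -1.36 ± 0.35 (SE; unadjusted p = 0.0016 and adjusted p = 0.9999 in limma). It was the 1 gene of 27 with an unadjusted p below 0.05, a share near the 3.41% of all probe sets, and its r with the score was 0.253. Nfkbia differed by -0.30 ± 0.16 and Sult1a1, a sulfotransferase, by 0.28 ± 0.19.

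The receptor and its partners were measured too. Nr3c1, the glucocorticoid receptor, had 11.21, 11.54 and 11.60 in MSC arrays and 11.35, 11.57 and 11.98 in vehicle arrays (lowest, median, highest). The difference was -0.15 ± 0.098 (SE; adjusted p = 0.9999 in limma), and its r with the score was -0.482. Nr3c2, the mineralocorticoid receptor, which also binds corticosterone, ran from 8.73 to 10.23 in MSC and from 8.69 to 9.67 in vehicle arrays (0.27 ± 0.23). Hsd11b1, the enzyme that regenerates active hormone, differed by -0.11 ± 0.074. The mean of 5 genes, these 3 with Hsd11b2, which inactivates the hormone, and Abcb1a, an efflux transporter that carries steroids, had an r of -0.597 with the score (rho -0.565), the opposite sign to the target genes. Gene by gene, 0 of the 5 had an r below -0.5, against 2.77% of the genes outside the 10. Hsd11b2, which lay below the mark of dim signal, had a positive r (0.450). The r of the mean was -0.553 without MSC replicate 5 and vehicle replicate 7 but -0.261 within replicates 1 to 5, and -0.337 with arrays centred on their medians.

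Chaperones of the receptor (6 of 7 list members measured) and its coregulators (7 of 8) had r of 0.237 and 0.060 with the score. The first was -0.124 without vehicle replicates 2 and 7. Of the chaperones, Fkbp4, which helps the bound receptor to the nucleus, differed by -0.083 ± 0.063 (SE), Ptges3, the p23 cochaperone, by -0.085 ± 0.077 and Stip1, an adaptor of heat shock proteins, by 0.055 ± 0.12. Of the coregulators, the acetyltransferase Crebbp differed by -0.062 ± 0.052, the coactivator Ncoa3 by -0.073 ± 0.069 and the corepressor Ncor1 by -0.032 ± 0.053. In limma 0 genes of the receptor, chaperone and coregulator lists passed the adjusted threshold (background 0%). At an unadjusted p below 0.05 the count was also 0, against 3.41% of all probe sets. With so few genes, neither count sets these lists apart.

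Markers of cell types and states were set beside the score. By Pearson's r over all arrays the largest correlations were with red blood cell genes (r = -0.595, rho = -0.538, 4 of 5 genes above the mark of dim signal, mean level 9.08 to 9.93 in MSC and 8.48 to 9.94 in vehicle arrays) and with clock genes (r = 0.529, rho = 0.534, 14 of 14 above the mark, 9.80 to 10.28 in MSC and 9.90 to 10.35 in vehicle arrays). Without the arrays farthest from each list's median these were -0.714 and 0.366, and within replicates 1 to 5 they were -0.423 and 0.558. Within MSC arrays they were -0.195 and 0.282, and within vehicle arrays -0.755 and 0.729. All 5 red blood cell genes were higher on average in MSC arrays. Per1 is on the clock list and on the list of 27. The part of these lists in the shared variation was not tested.

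Striatal markers had an r of 0.467 and the largest rho of the marker lists (0.679). The r was 0.355 without MSC replicate 6 and vehicle replicate 1, and 0.742 within replicates 1 to 5. Choroid plexus markers fell into separate levels, 9.42 in MSC replicate 4 and 9.26 in vehicle replicate 2 against at most 6.47 elsewhere, so no r over all arrays is given. Over the other 12 arrays it was -0.100, and these 2 arrays had scores of -0.181 and -0.263. Meningeal markers were likewise set apart in MSC replicate 2 and vehicle replicate 2, with an r of -0.337 over the other 12.

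The remaining lists correlated more weakly with the score. Astrocyte markers had an r of 0.338 (rho 0.270), immediate early genes 0.323 (rho 0.218), microglia 0.186 (rho 0.147), excitatory neurons 0.072 (rho 0.011), oligodendrocytes 0.054 (rho 0.033) and hippocampal neurons -0.033 (rho 0.015). Pericyte and smooth muscle markers had -0.191 (rho -0.125) and endothelial markers -0.222 (rho -0.275). Without the arrays farthest from each median these ran from -0.288 (oligodendrocytes) to 0.146 (astrocytes). Within replicates 1 to 5 astrocyte markers had an r of 0.572 and immediate early genes -0.069. Within the groups some values were larger. Immediate early genes had 0.779 in MSC and -0.063 in vehicle arrays, and hippocampal markers -0.644 and 0.462. Endothelial markers had 0.037 and -0.612. Differences between the groups in r were not tested. Of 13 immediate early genes measured, 11 were lower on average in MSC arrays, with a median difference of -0.50. In limma 5 of them had an unadjusted p below 0.05, against 3.41% of all probe sets, and 0 passed the adjusted threshold. All 6 endothelial genes measured were lower on average in MSC arrays (47.6% of all genes were higher). In limma 2 of the 6 had an unadjusted p below 0.05, against 3.41% of all probe sets, and 0 passed the adjusted threshold. Of these 2 genes, 1 lay below the mark of dim signal and was read from 1 of 4 probe sets. The endothelial list means were 7.74 to 8.17 in MSC and 8.04 to 8.50 in vehicle arrays.

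The genes most like the score over the 14 arrays, outside the 10 and above the mark of dim signal, were Rfxap (r = 0.913), Wdr43 (0.901), Ifngr1 (0.867), Lias (0.861), Mt1 (0.850), Mrfap1 (0.848), Usp12 (0.838) and Taf4a (0.833). Within replicates 1 to 5 their r ran from 0.721 (Taf4a) to 0.899 (Rfxap). Those running most opposite were Ift74 (-0.841), Ccdc90b (-0.821), Clec4a1 (-0.814) and Rnf10 (-0.813). They were chosen as the extremes of 14203 genes, so their r is a description of these arrays.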

How the data were processed

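The table the authors deposited holds log2 values. The submitters' processing notes name RMA and Affymetrix Expression Console, and the sources used here give no versions, settings or genome build. RMA corrects background, equalises the arrays' probe signals and summarises each probe set, which pulls small changes of dim probe sets towards 0. Per the labels' protocols, 100 ng of total RNA per array was labelled.

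Of 70580 probe sets, 1738 controls were left out and 68842 tested, and 23446 of these carry exactly 1 symbol (22093 genes, 1 symbol updated through Entrez identifiers). Where a gene had more than 1 probe set, that with the highest mean was used. MSC and vehicle arrays were tested in limma 3.58.1 under R 4.3.3 (no covariate, Benjamini-Hochberg over all tested probe sets, adjusted p below 0.05), and differences are MSC minus vehicle. Correlations between genes used 100000 permutations, or all orders within groups of 7, two-sided. The design also planned permutation p-values for the score against 17 lists. They are not given, since the 10 genes and all lists were chosen with earlier results of these data known. Permutation p-values of gene pairs come from the same genes and are printed as a description only. Of 146 list entries 140 were measured.

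Named genes are the 10, the 3 list members with the smallest p per pathway list, Nr3c1 and Nr3c2, pairs with an adjusted p below 0.05, and the 8 highest and 4 lowest r with the score. Ttr and the other single genes of the list of 27 were named outside this rule, after their values were seen. Precision is limited by the number of arrays. Scripts were first tested on simulated data holding known shifts. Array pairs correlated at 0.990 to 0.997, and 0 were identical.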

Additional observations from a re-analysis of the deposited data

Results flagged for a closer look

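In 56 sets of 7 arrays (the 10 genes, the score and 17 list means in each group), 8 held an array far from the others by Dixon's test at 95%. The nominal rate of 1 in 20 would give 2.8 for independent sets of normally distributed values. These sets share arrays and genes, so no excess over chance is read from the 8. Among the 10 genes, Sgk1 was at 10.75 in MSC replicate 6, against at most 9.87 in the other MSC arrays, and Cdkn1a at 5.70 in MSC replicate 5, against at least 6.05. Among the lists, choroid plexus markers were at 9.42 in MSC replicate 4 (next highest MSC array 6.02) and at 9.26 in vehicle replicate 2 (next 6.47). Meningeal markers were at 8.66 in MSC replicate 2 (next 7.73) and at 8.58 in vehicle replicate 2 (next 7.48). Striatal markers were at 8.03 in MSC replicate 6 (next 7.28), and endothelial markers at 8.50 in vehicle replicate 2 (next 8.21).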

How the results depend on the processing

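The count of probe sets past the threshold stayed at 0 in limma with any 1 array left out and in the other fits, MSC replicate 7 counted as vehicle included, with 1014 to 3417 at an unadjusted p below 0.05, except in replicates 6 and 7 alone, where 1 unnamed probe set passed. In that subset of 4 arrays Fkbp5 (-0.14), Klf9 (-0.11) and Hif3a (-0.036) turned sign. None of the 10 genes passed an adjusted p of 0.05 in any fit. Without MSC replicate 6 Sgk1 differed by -0.51 (unadjusted p = 0.030 in limma, adjusted 0.9997). Leaving out 1 array at a time its difference ran from -0.51 to -0.21 and that of Pdk4 from -0.43 to -0.12. The differences of the other 8 genes also moved by over 1.5 times with 1 array left out but kept their sign, for example Fkbp5 (0.017 to 0.18), Tsc22d3 (-0.12 to -0.0092), Errfi1 (-0.19 to -0.027) and Hif3a (0.0022 to 0.082). Without MSC replicates 4 and 6 and vehicle replicate 2, Sgk1 differed by -0.62 (unadjusted p = 0.014 in limma) and Pdk4 by -0.49, and neither passed the adjusted threshold. With 1 array left out the score difference ran from -0.11 to 0.0053, the median difference from -0.076 to -0.012, the median r between genes from 0.435 to 0.538 and the r of the score with the 27 other genes from 0.822 to 0.885 (9 to 13 of them above 0.5). Under the other settings the median r ran from 0.462 to 0.543. The r with the 27 was 0.788 in replicates 1 to 5 and 0.785 with values centred within replicates 1 to 5 and within 6 and 7. It was 0.902 with the list averaged over z-scores, a setting chosen after seeing the data, as were the centring within replicates, the leaving out of Sgk1 and Pdk4, and that of MSC replicates 4 and 6 and vehicle replicate 2. Whether replicate numbers pair the arrays was not settled. Same-numbered arrays correlated at -0.388 to 0.275 in their deviations from the group means, with 3 of 7 pairs above 0.1. Of the 7 pairs, 2 correlated best with their own number. With the replicate block 0 probe sets passed (2278 at an unadjusted p below 0.05), Sgk1 differed by -0.35 (unadjusted p = 0.025, adjusted 0.9999) and Pdk4 by -0.28 (unadjusted p = 0.010, adjusted 0.9999). With replicates 6 and 7 as a block these differences were the same, with unadjusted p of 0.047 and 0.046 in limma. Over all settings, with 10 genes in each, 6 gene differences had an unadjusted p below 0.05 in limma, all of Sgk1 or Pdk4. In the main fit 3.41% of all probe sets reached that mark. The settings reuse the same arrays, so the 6 are not separate pieces of evidence. A restriction to members above the mark of dim signal changed nothing, since all 10 are.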
